A study of Homo sapiens with 8 samples.

Results

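The 38 genes described here encode complement components and their regulators, fibrinogen, coagulation factors, receptors and inhibitors, plasminogen activators, and acute-phase proteins. They were taken by gene symbol from the 60291 genes counted in each library, and all 38 matched an Ensembl identifier. RNA was sequenced from A549, an established human lung adenocarcinoma line whose KEAP1 mutation leaves the transcription factor NRF2, the product of NFE2L2, constantly active. In each transfection 250000 cells received RNAiMAX lipid with 5 nmol of siRNA, a small double-stranded RNA that silences mRNA of matching sequence. The NFE2L2 siRNA group holds 3 libraries, each from a different duplex used once, and the control siRNA group holds 4, from 2 non-targeting duplexes used in 2 transfections each. In 1 further library, called mock, the cells received the lipid without siRNA. The silenced group is therefore 3 duplexes rather than 3 repeats of 1 duplex, all libraries come from a single cell line, and p-values measure only the spread between these transfections.

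Complement is a cascade of plasma proteases and binding proteins that tag and lyse foreign surfaces, and host cells carry regulators that halt it. Coagulation is a protease cascade that ends with thrombin turning fibrinogen into fibrin, which plasmin later dissolves after its activation by tissue-type or urokinase-type plasminogen activator. Most of the soluble proteins of these systems are made by hepatocytes, where several are acute-phase genes that rise with interleukin-6 and STAT3, but airway epithelial cells also transcribe a number of them.

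Promoter sequences from RefSeq (GRCh38.p14, 250 bases before to 50 after each annotated start) were found for 27 of the 38 genes, in 38 windows. The 3 fibrinogen genes are shown because they are neighbours on chromosome 4. As given further on, their levels also followed the same order over the control and mock libraries. C3, CFB, CFI, F2, TFPI, PROS1 and TF, which do not lie beside them, had that order too. CD59 is shown because it was 1 of the 2 genes called with NFE2L2 siRNA, and C1S is the other. Each sequence is written 5′ to 3′ on the strand of its gene from 250 bases before the start (counted as 0), with 20 bases after it. Capitals mark TTCNNNGAA, the STAT motif, CTGGGA, the core of the interleukin-6 response element, and TGACNNNGC, the core of the antioxidant response element bound by NRF2, each searched on both strands.
FGA, chr4:154590723-154590992, minus strand: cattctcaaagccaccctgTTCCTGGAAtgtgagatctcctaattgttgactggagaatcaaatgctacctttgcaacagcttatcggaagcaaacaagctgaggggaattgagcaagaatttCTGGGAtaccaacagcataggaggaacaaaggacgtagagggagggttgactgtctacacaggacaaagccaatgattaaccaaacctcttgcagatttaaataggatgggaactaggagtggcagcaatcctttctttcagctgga
FGB, chr4:154562730-154562999, plus strand: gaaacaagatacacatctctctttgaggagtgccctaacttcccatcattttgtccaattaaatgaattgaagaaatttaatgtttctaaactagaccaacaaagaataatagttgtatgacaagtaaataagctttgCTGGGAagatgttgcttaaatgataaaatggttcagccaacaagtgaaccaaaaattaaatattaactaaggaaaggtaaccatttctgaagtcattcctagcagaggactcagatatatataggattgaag
FGG, chr4:154612637-154612906, minus strand: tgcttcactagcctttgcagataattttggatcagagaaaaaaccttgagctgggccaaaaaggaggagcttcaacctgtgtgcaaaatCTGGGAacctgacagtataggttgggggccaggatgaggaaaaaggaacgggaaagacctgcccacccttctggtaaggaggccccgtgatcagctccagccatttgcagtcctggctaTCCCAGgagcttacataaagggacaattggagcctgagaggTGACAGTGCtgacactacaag
CD59, chr11:33736460-33736729, minus strand: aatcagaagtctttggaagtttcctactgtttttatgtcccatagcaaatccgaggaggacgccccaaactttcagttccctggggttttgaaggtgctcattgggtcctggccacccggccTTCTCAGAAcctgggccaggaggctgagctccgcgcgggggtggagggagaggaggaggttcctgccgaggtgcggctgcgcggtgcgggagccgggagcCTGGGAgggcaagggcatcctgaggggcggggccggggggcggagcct

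FGA held the STAT motif at −231 and CTGGGA at −127, FGB held CTGGGA at −112, and FGG held CTGGGA at −161, the same 6 letters on the other strand at −42, and TGACNNNGC at −1, across the start itself. The CD59 window, 1 of 4 listed for that gene, held the STAT motif at −128 and CTGGGA at −28. An overlapping window holds the same matches, and the other two windows of CD59 hold none. CTGGGA was searched only after the sequences had been seen, and it is a short motif that stood in 33.3% of all 35116 windows of 300 bases and in 16 of the 38 windows of these genes (14 of the 27 genes). TTCNNNGAA stood in 7.66% of all windows and in 9 of the 38 (8 genes, C1R, CD59, CFB, F10, F2RL1, FGA, PROS1 and SERPIND1). TGACNNNGC stood in 13.3% of all windows and in 5 of the 38 (F10, FGG, PLAU, SERPIND1 and SERPINE2), of which SERPIND1 was not tested and the other four did not pass the threshold with NFE2L2 siRNA. These matches describe letters in a window and not sites of binding.

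The genes covered a wide range of levels, as the plot of level by library shows. Levels between genes are compared per length, as counts per 1000000 gene reads (CPM, TMM-normalised) per kb of the longest coding transcript, and elsewhere CPM is used. In control siRNA the highest per-length levels were those of CD46 (211 CPM per kb), TFPI2 (166), CLU (123) and PLAU (73.8), followed by C1S (48.0), F2RL1 (44.3), CD55 (43.8) and CD59 (43.3). FGG (41.5 CPM per kb), FGA (35.9) and C3 (31.1) stood close to them, and FGB was at 17.1. CD55, CD59, FGG and FGA thus lay between 35.9 and 43.8 CPM per kb. At the other end, SERPING1, SERPINC1, SERPIND1 and HP had fewer than 10 reads in every siRNA library and were not tested. SERPING1, the inhibitor of C1r and C1s, had 1 to 5 reads per siRNA library and 2 in mock. SERPINC1, which encodes antithrombin, had 5, 7, 7 and 7 reads with control siRNA against 1, 2 and 5 with NFE2L2 siRNA. SERPIND1 (heparin cofactor II) had 0 to 3 reads and HP (haptoglobin) 0 to 5 in any library. No per-length level is compared for TF, whose longest transcript in the annotation used here (GENCODE release 44) carries a long 3′ end that the release used for counting (19) may not hold.

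**Figure D1:**
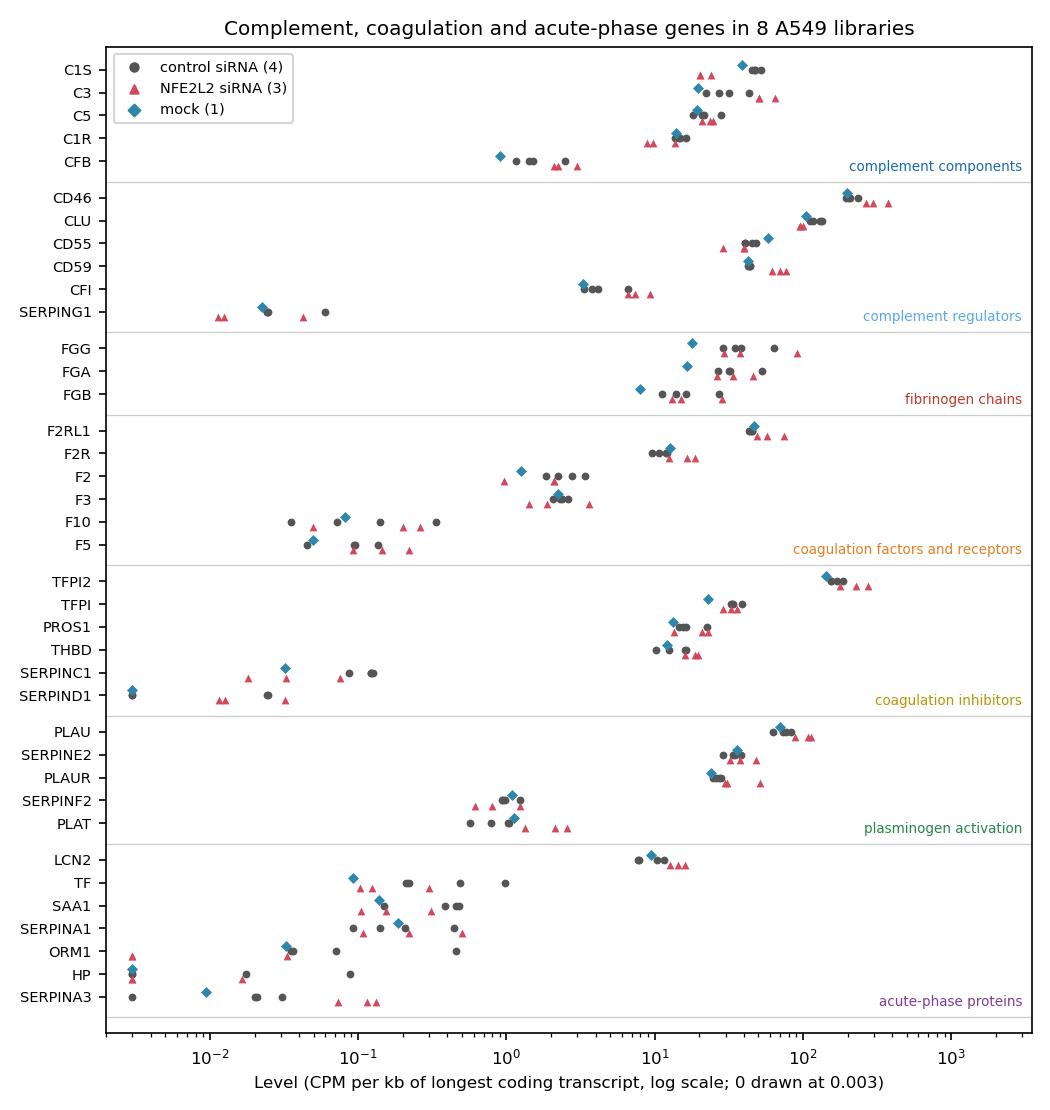
Level of each of the 38 genes in 8 A549 libraries, as CPM per kb of the longest coding transcript on a log axis (values of 0 drawn at 0.003), grouped by role; circles are the 4 control siRNA libraries, triangles the 3 NFE2L2 siRNA libraries and diamonds the mock library. CD46 and TFPI2 lie highest, C1S triangles lie to the left of its circles and CD59 triangles to the right.

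The libraries held 35525141 to 41645410 gene reads, and differences between groups are given as log2 ratios, the log2 fold changes fitted by edgeR to NFE2L2 siRNA over control siRNA. NFE2L2 itself had 1178, 2044 and 1262 reads with its siRNA against 3974 to 4227 with control siRNA and 4408 in mock, a log2 ratio of −1.55 (adjusted p = 0.000995, edgeR). The NRF2 targets NQO1 and GCLM had log2 fold changes of −2.19 and −2.52. KRT8 and KRT18, keratins of epithelial cells, had at least 149218 and 111143 reads in every library. Markers of alveolar type II cells were at or near 0, with at most 17 reads on SFTPD, 6 on SFTPC and none on SFTPA1. Summed hepatocyte markers (6 genes) reached 3.84 to 5.03 CPM with NFE2L2 siRNA, 1.88 to 5.59 with control siRNA and 1.55 in mock. The largest part was SERPINA6, with 110 to 129, 30 to 120 and 30 reads in the same order. ALB had 13 to 60 reads and APOB 0 to 4. CYP2E1 had 11 to 28 reads with NFE2L2 siRNA against 5 to 11 with control siRNA, and APOA1 2 to 11 against 11 to 15. Leukocyte PTPRC had 0 to 3 reads.

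With NFE2L2 siRNA, 2 of the 38 genes passed the threshold, 1 in each direction. C1S, a protease of the C1 complex that starts the classical pathway, fell to 0.448 of its control level, and CD59, the membrane protein that blocks assembly of the membrane attack complex, rose 1.60-fold. A further 5 genes had an adjusted p between 0.01 and 0.05, all with higher levels with NFE2L2 siRNA: the complement genes C3 and CD46, the plasminogen activators PLAT and PLAU, and the antiprotease SERPINA3. The other 27 tested genes had an adjusted p of at least 0.05, among them the 3 fibrinogen chains, all coagulation factors and receptors, and all tested coagulation inhibitors. Over the 17811 genes that reached 10 reads in 1 or more of the 7 siRNA libraries, edgeR's quasi-likelihood test gave 2.76% of genes an adjusted p under 0.01 (1.39% higher and 1.36% lower), against 2 of the 34 genes tested here (5.88%). An adjusted p under 0.05 was found for 8.17% of all genes and for 7 of these 34 (20.6%). The 38 genes were chosen with earlier results of these data known, so their shares are a description and cannot show an excess. Log2 fold changes were positive for 22 and negative for 12 of the 34, with a median of 0.27 against 0.0082 over all tested genes. Every NFE2L2 siRNA library lay above every control library for 11 of the 34 genes (32.4%, against 11.9% of all tested genes) and below for 4 (11.8%, against 11.4%), and for 19 the groups overlapped. The filter keeps a gene that reaches 10 reads in 1 group only. Among the 34 this applied to SERPINA3 (NFE2L2 siRNA) and ORM1 (control siRNA), so the groups of these had to differ. SERPINA3 stands among the 5 and the 7 genes counted above and among the 11, and ORM1 among the 4. The p-value of SERPINA3 cannot be read as a call. In such bulk RNA, fewer cells that express a gene and less RNA per cell cannot be told apart.

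**Figure D2:**
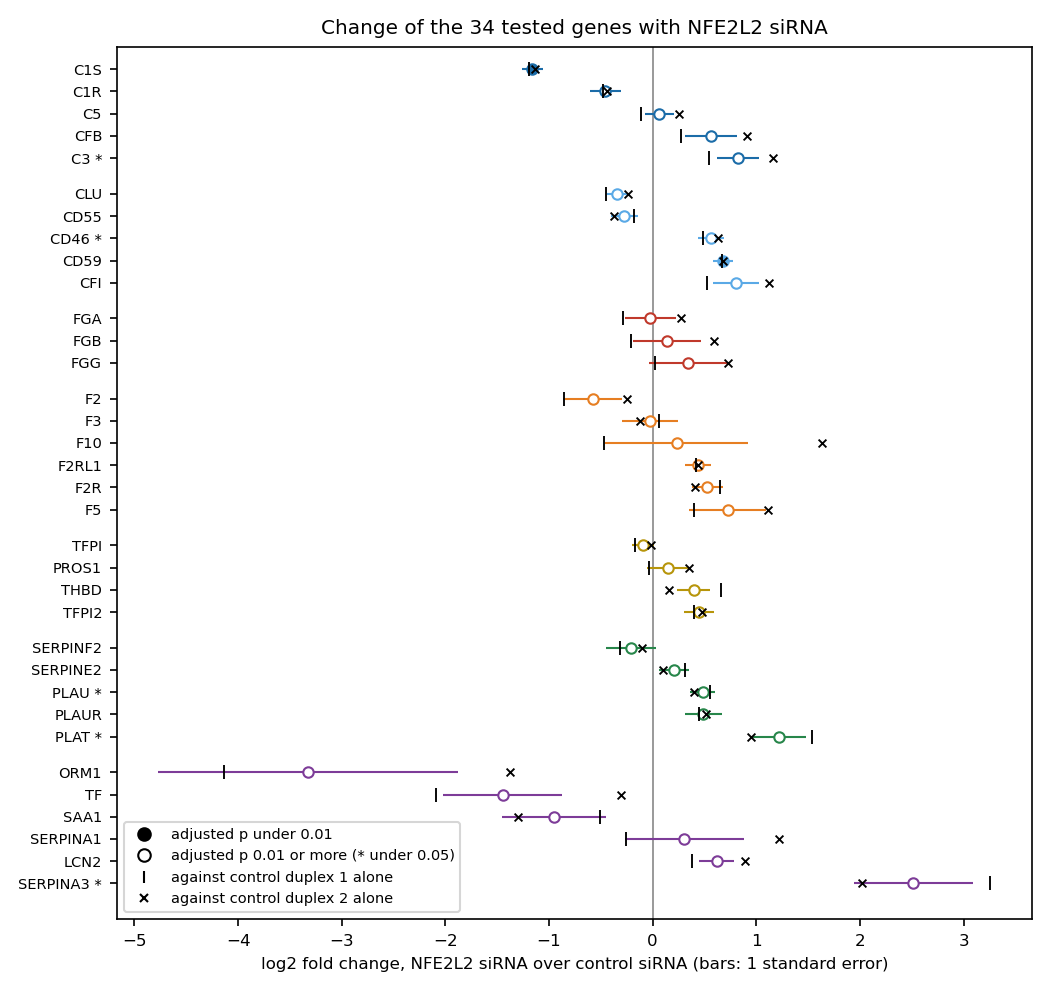
Log2 fold change of the 34 tested genes, NFE2L2 siRNA over control siRNA (edgeR, 3 against 4 libraries), with bars of 1 standard error; filled points have an adjusted p under 0.01, and ticks and crosses give the value against control duplex 1 and duplex 2 alone. C1S and CD59 are the filled points, with both control duplexes giving nearly the same value, while the fibrinogen chains, TF and C3 move with the duplex chosen.

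Among the complement components, C1S (ENSG00000182326.10, GRCh37 chromosome 12 from 7096351 to 7178336, plus strand) fell. Its level was 62.4, 62.2 and 73.8 CPM with the 3 NFE2L2 duplexes, 160, 140, 145 and 146 CPM in the control libraries (duplex 1, then duplex 2) and 120 CPM in mock. The groups did not overlap, and mock lay below the controls but well above the silenced libraries. The mean was 66.1 ± 6.62 CPM (SD, n = 3) against 148 ± 8.55 CPM (SD, n = 4), a log2 ratio of −1.16 ± 0.0991 (SE, standard error, adjusted p = 0.000171, edgeR). The gene stayed past the threshold with each library left out (log2 fold change −1.25 to −1.12) and against either control duplex alone (−1.19 and −1.14).

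C1R, the protease that cleaves C1s and lies beside C1S on the opposite strand, read 18.7, 20.5 and 29.0 CPM with NFE2L2 siRNA. The controls read 34.1, 28.9, 30.6 and 31.1 CPM and mock 29.6. The first 2 silenced libraries lay below all controls and the last lay within them, with a log2 ratio of −0.46 ± 0.153 (SE, adjusted p = 0.0981, edgeR). Of the exon bases of C1R, 672 are shared on the same strand with C1RL, where reads that cannot be assigned were dropped in counting.

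C3, the protein on which all complement pathways converge, had values in the opposite direction to those of C1S. It read 264, 264 and 337 CPM with NFE2L2 siRNA against 228, 165, 141 and 116 CPM in the controls and 103 CPM in mock. The groups did not overlap, but the control libraries spread 1.96-fold, and mock lay below them all. The log2 ratio was 0.83 ± 0.202 (SE, adjusted p = 0.0357, edgeR), 0.54 against control duplex 1 alone and 1.16 against duplex 2 alone (adjusted p = 0.178 and 0.0211). Without control duplex 1 repeat 1 the value was 1.03 and the adjusted p 0.00813, and without NFE2L2 siRNA library 3 they were 0.70 and 0.127 (edgeR). C5, which opens the terminal pathway, had a log2 ratio of 0.065 (adjusted p = 0.819). CFB, the protease of the alternative pathway, had 0.56 (adjusted p = 0.194), with 186, 216 and 313 reads against 229, 139, 131 and 103, and 2273 of its 5312 exon bases overlap C2 and a readthrough gene on the same strand, so its count is uncertain.

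Among the complement regulators, CD59 (ENSG00000085063.10, chromosome 11 from 33724556 to 33758025, minus strand) rose. Its level was 476, 537 and 596 CPM with NFE2L2 siRNA, 330, 339, 333 and 337 CPM in the controls and 331 CPM in mock. The 4 controls and mock were nearly level, with a coefficient of variation of 1.33% over the controls, and all 3 silenced libraries stood apart from them. The mean was 536 ± 59.8 CPM (SD, n = 3) against 335 ± 4.46 CPM (SD, n = 4), a log2 ratio of 0.68 ± 0.0933 (SE, adjusted p = 0.00262, edgeR). The value stayed between 0.60 and 0.76 with each library left out, but the adjusted p was 0.0102 to 0.0150 without any 1 of the 4 control libraries, and 0.0537 and 0.0609 against control duplex 1 or 2 alone (log2 fold changes 0.67 and 0.68).

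CD46, the membrane cofactor for cleavage of C3b and C4b, read 1007, 893 and 1255 CPM with NFE2L2 siRNA, 797, 689, 700 and 657 CPM in the controls and 663 CPM in mock. All silenced libraries lay above the controls, with a log2 ratio of 0.57 ± 0.1251 (SE, adjusted p = 0.0241, edgeR). Leaving out single libraries gave adjusted p-values from 0.00835 (without NFE2L2 siRNA library 2) to 0.0875 (without control duplex 1 repeat 2), and 4 of the 7 such fits were above 0.05. CFI, the protease that uses this cofactor, read 14.7, 13.3 and 18.7 CPM against 13.1, 8.31, 7.59 and 6.67 CPM, and 6.53 CPM in mock (0.80, adjusted p = 0.057). Its silenced libraries also lay above all controls, narrowly in library 2, and with single libraries left out the log2 ratio was from 0.65 (adjusted p = 0.186, without NFE2L2 siRNA library 3) to 1.05 (adjusted p = 0.00935, without control duplex 1 repeat 1). CD55, which speeds the decay of C3 convertases, stood lower in all 3 silenced libraries (76.1 to 106 CPM against 108 to 128 CPM) and highest in mock at 155 CPM, with a log2 ratio of −0.27 (adjusted p = 0.225). CLU, a chaperone that also binds terminal complement complexes, read 261, 273 and 264 CPM against 305 to 368 CPM in the controls and 286 CPM in mock (−0.34, adjusted p = 0.0524). Of the 5 tested regulators, 3 had positive and 2 negative values, and CD59 alone passed the threshold.

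**Figure D3:**
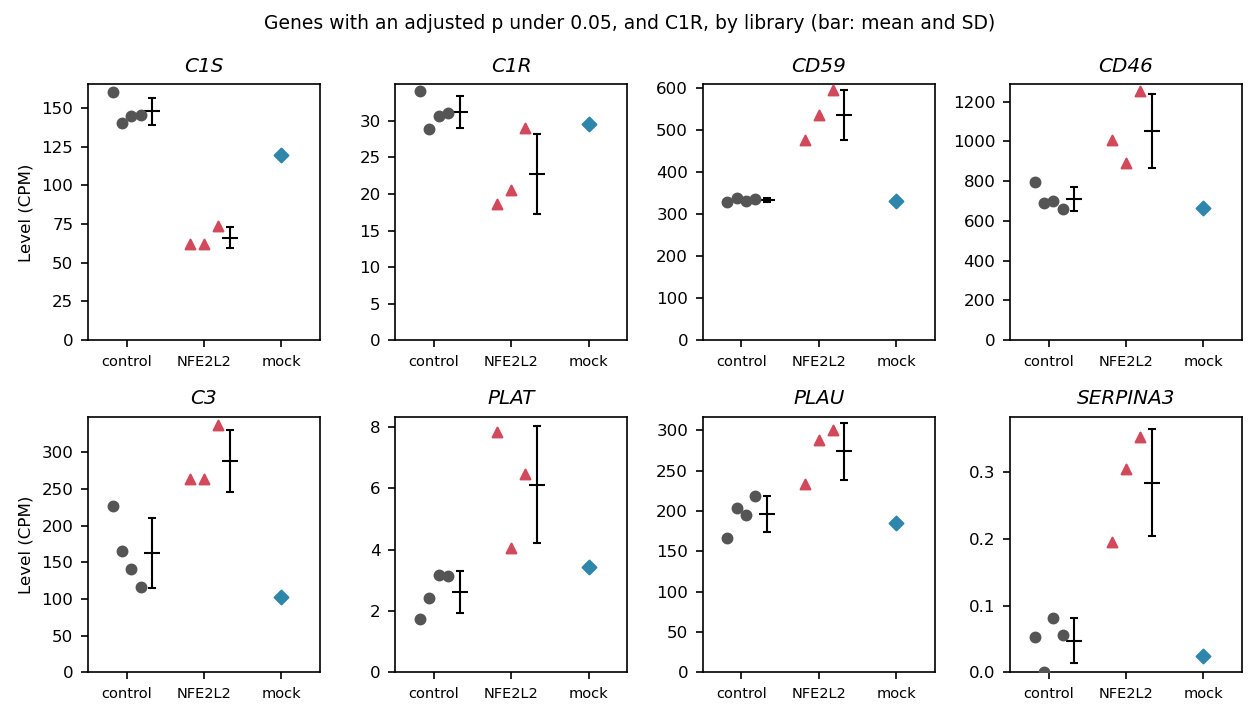
Level (CPM, linear axes from 0) of the 7 tested genes with an adjusted p under 0.05 and of C1R in each library, with the mean and SD of each siRNA group. The C1S triangles lie between 62.2 and 73.8 CPM below all circles, and the CD59 triangles between 476 and 596 CPM above circles that lie between 330 and 339 CPM.

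Of the 3 fibrinogen genes, none passed the threshold with NFE2L2 siRNA, and no direction was shared by their libraries. FGA, the α chain, read 95.6, 124 and 168 CPM with NFE2L2 siRNA, 194, 118, 115 and 97.8 CPM in the controls and 60.2 CPM in mock. FGB, the β chain, read 47.8, 54.4 and 104 CPM, against 99.2, 58.8, 50.4 and 41.0 CPM, and 29.0 CPM in mock. FGG, the γ chain, read 78.3, 60.9 and 187 CPM, against 133, 79.6, 71.6 and 59.4 CPM, and 37.02 CPM in mock. In all 3 genes control duplex 1 repeat 1 was the highest control, duplex 2 repeat 2 the lowest, mock lay below every control, and NFE2L2 siRNA library 3 was the highest of the silenced libraries. The log2 fold changes were −0.024 for FGA, 0.14 for FGB and 0.34 for FGG (standard errors 0.246, 0.327 and 0.378, adjusted p = 0.967, 0.8287 and 0.622, edgeR). Without NFE2L2 siRNA library 3 they were −0.26, −0.29 and −0.30, and without control duplex 1 repeat 1 they were 0.23, 0.46 and 0.63, so the sign rests on single libraries.

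The coagulation factors were mostly low and their receptors higher. F2, prothrombin, had 69, 163 and 176 reads with NFE2L2 siRNA, 252, 206, 165 and 132 in the controls and 99 in mock (log2 fold change −0.58, adjusted p = 0.246). F3, tissue factor, the trigger of the extrinsic pathway, had 154, 324 and 139 reads against 177 to 221, so that library 2 lay above and the other two below the controls (−0.026, adjusted p = 0.969). F5, the cofactor of factor Xa, had 15 to 86 reads and F10, the zymogen of factor Xa, 2 to 19 reads in the siRNA libraries. F2R, the thrombin receptor PAR1, read 70.1, 46.3 and 61.9 CPM with NFE2L2 siRNA against 35.8 to 44.9 CPM in the controls and 47.5 CPM in mock (0.53, adjusted p = 0.0545, from 0.00737 without NFE2L2 siRNA library 2 to 0.162 without control duplex 1 repeat 2). F2RL1, the receptor PAR2, read 212, 164 and 140 CPM against 123 to 130 CPM, and 134 CPM in mock (0.44, adjusted p = 0.0683). For both receptors every silenced library lay above every control, and mock did too.

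Of the coagulation inhibitors, TFPI2, a Kunitz-type protease inhibitor, had the highest per-length level and read 606, 389 and 503 CPM with NFE2L2 siRNA. The controls lay between 339 and 412 CPM and mock at 313 CPM, so that library 2 lay within the controls (log2 fold change 0.44, adjusted p = 0.0901). TFPI, which blocks tissue factor with factor VIIa, read 111 to 139 CPM against 126 to 150 CPM, and 87.6 CPM in mock (−0.091, adjusted p = 0.644). PROS1, protein S, the cofactor of activated protein C, read 46.0 to 78.0 CPM against 49.8 to 77.0 CPM (0.15, adjusted p = 0.693). THBD, thrombomodulin, which turns thrombin towards protein C, read 65.0, 75.5 and 78.5 CPM with NFE2L2 siRNA and 41.1 and 50.7 CPM with control duplex 1 but 64.2 and 66.1 CPM with duplex 2 (0.39, adjusted p = 0.162). Its silenced libraries lay clear of duplex 1 and overlapped duplex 2.

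In plasminogen activation, PLAT, tissue-type plasminogen activator, had 280, 160 and 275 reads with NFE2L2 siRNA, 65, 90, 118 and 113 in the controls and 137 in mock. All silenced libraries lay above the controls and above mock, with a mean of 6.12 ± 1.90 CPM (SD, n = 3) against 2.62 ± 0.680 CPM (SD, n = 4) and a log2 ratio of 1.22 ± 0.259 (SE, adjusted p = 0.0200, edgeR). The adjusted p was 0.00514 without NFE2L2 siRNA library 2 but 0.0744 without control duplex 1 repeat 2, and 0.1795 against control duplex 2 alone. PLAU, urokinase, at 233, 287 and 301 CPM against 167 to 219 CPM and 185 CPM in mock, had a log2 ratio of 0.48 ± 0.121 (SE, adjusted p = 0.0392, edgeR, and 0.0152 to 0.126 with single libraries left out). PLAUR, the urokinase receptor, read 82.4, 47.6 and 49.1 CPM against 39.7 to 45.0 CPM (0.49, adjusted p = 0.1247), with library 1 far above the other two. SERPINE2, protease nexin-1, read 82.1 to 123 CPM against 73.7 to 98.5 CPM (0.21, adjusted p = 0.414), and SERPINF2, α2-antiplasmin, had 50 to 120 reads against 79 to 105 (−0.21, adjusted p = 0.644). None of these genes passed the threshold of 0.01, and both activators were among those under 0.05.

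The acute-phase genes had values in both directions, and none passed the threshold of 0.01. SERPINA3, α1-antichymotrypsin, had 7, 12 and 15 reads with NFE2L2 siRNA, 2, 0, 3 and 2 in the controls and 1 in mock (log2 ratio 2.52 with an SE of 0.570, adjusted p = 0.0266, edgeR, and 0.0245 to 0.0909 with single libraries left out). SERPINA3 reached the 10 reads needed for testing only with NFE2L2 siRNA. Its tested groups therefore had to differ, and these p-values cannot be read as calls. At these counts the fitted value depends on the prior count added, and 1585 of the gene's 5000 exon bases are shared with another gene on the same strand. LCN2, lipocalin 2, a siderophore-binding protein, read 10.8, 12.1 and 13.6 CPM against 9.85, 8.77, 6.59 and 6.54 CPM, and 7.96 CPM in mock (0.62, adjusted p = 0.053), with all silenced libraries above the controls. TF, transferrin, the iron carrier of plasma, had 215, 99 and 88 reads with NFE2L2 siRNA, 737, 366, 165 and 152 in the controls and 74 in mock. NFE2L2 siRNA library 1 lay above both duplex 2 libraries, and the log2 ratio was −1.45 ± 0.576 (SE, adjusted p = 0.153, edgeR), −2.09 against duplex 1 alone, −0.30 against duplex 2 alone and −0.81 without duplex 1 repeat 1. SERPINA1, α1-antitrypsin, had 12 to 63 reads in the siRNA libraries (0.30, adjusted p = 0.786), and SAA1, serum amyloid A1, 4 to 16 (−0.95, adjusted p = 0.271). ORM1, orosomucoid, had 0, 1 and 0 reads against 13, 2, 1 and 1, and 1 in mock. SAA1 and ORM1 have near-identical neighbours (SAA2 and ORM2), and reads that fit both were not counted, so their levels are uncertain.

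Several of the other genes also spread widely between the control libraries. Over the 12054 tested genes with a control mean of at least 100 reads, the median coefficient of variation between the 4 control libraries was 7.17%, and its 90th percentile was 16.8%. For the 26 of the 38 genes with that many reads the median was 11.4%, and 12 lay above the 90th percentile: TF (76.1%), FGB (41.1%), FGG (37.8%), CFB (35.3%), FGA (32.7%), CFI (32.3%), C3 (29.4%), F2 (26.5%), THBD, PROS1, LCN2 and C5. The lowest were CD59 (1.33%) and F2RL1 (2.61%). PLAUR (5.47%), C1S (5.79%) and C1R (6.996%) were also below the median of all genes, and the other 21 of the 26 were above it. Control duplex 1 repeat 1 was the highest control library for 18 of these 26 genes (69.2%), against 30.8% of the 12054 genes. That library also had the lowest TMM factor of the 7 (0.958, the others 0.984 to 1.02). HNF4A, a hepatocyte transcription factor gene outside the 38, read 74.6, 52.0, 39.2 and 36.1 CPM in the same 4 libraries, 37.2 CPM in mock and 18.1, 23.2 and 32.4 CPM with NFE2L2 siRNA (log2 fold change −1.04, adjusted p = 0.0456, edgeR). HNF4A did not pass the threshold of 0.01 and was picked from the listed genes with its values known. Its mock level lay within the controls. FOXA2, a further transcription factor gene on that list, read 23.5, 20.8, 20.3 and 21.8 CPM in the 4 control libraries (log2 fold change 0.0071, adjusted p = 0.980, edgeR). The part of HNF4A in the spread was not tested.

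**Figure D4:**
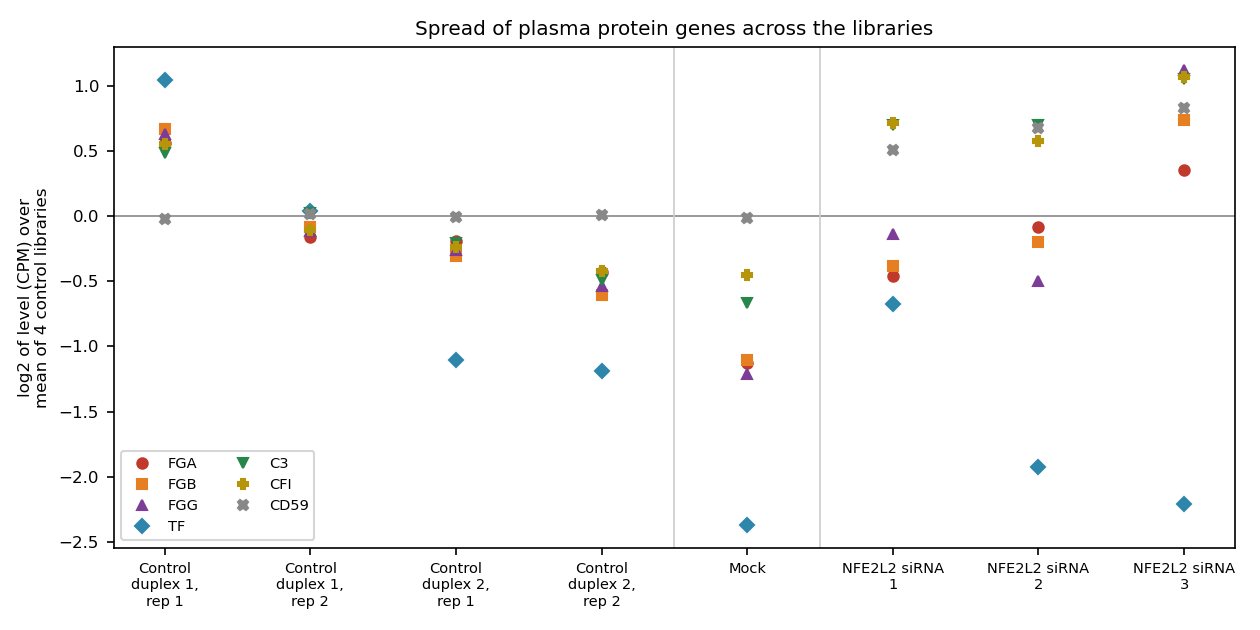
Level of 7 genes in each library as the log2 ratio of its CPM to the mean CPM of the 4 control libraries. FGA, FGB, FGG, C3 and CFI stand highest among the controls in duplex 1 repeat 1 and lower in mock than in any control, TF spans the widest range, and CD59 stays near 0 in controls and mock and is raised in the 3 NFE2L2 siRNA libraries.

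Because the control group mixes 2 duplexes, control duplex 2 was compared with control duplex 1. No gene of the 34 passed the threshold (edgeR, adjusted p under 0.01 for 0% of all tested genes, and DESeq2 called 0 of the 34 and 0.465% of all genes for which it gave an adjusted p), the smallest adjusted p being 0.429, while 8 of the 34 had an unadjusted p under 0.05 (23.5%, against 7.26% of all tested genes). These 8 were TF (log2 difference −1.77), C3 (−0.61), CFI (−0.59), LCN2 (−0.50), C5 (−0.35) and THBD (0.50), with F10 and ORM1 at 19 reads or fewer. Levels were lower with duplex 2 for 24 of the 34 genes, against 49.6% of all tested genes. As given above, control duplex 1 repeat 1 was often the highest control library, and how far this direction rests on that library was not tested. In a test of the 4 control libraries alone TF and THBD passed the threshold, 2 of the 34 genes (5.88%) against 3.07% of all tested genes. Mock lay below all 4 control libraries for 16 of the 34 genes, against 22.5% of all tested genes. It lay above all 4 for 4 of the 34, against 22.6% of all tested genes. The 16 included all 3 fibrinogen chains, C3, CFB, CFI, F2, TFPI, PROS1 and TF, and the 4 above were CD55, F2R, F2RL1 and PLAT. Mock is a single library, so this has no replicate.

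Beside the 38 genes, 95 further genes of the same systems and of their regulation were listed, of which 63 were tested. By the same edgeR test 9 of these passed the threshold (14.3%, against 2.76% of all tested genes), 4 higher and 5 lower. The list was made with earlier results of these data known, so its share is a description and cannot show an excess. The lower genes were F2RL2, the thrombin co-receptor PAR3, with 27, 21 and 27 reads against 400 to 490 (log2 fold change −4.26), AMBP, the precursor of α1-microglobulin and bikunin (−2.02), the ferritin chains FTL (−1.78) and FTH1 (−1.19), and the transcription factor CEBPB (−0.55). The higher genes were SERPINA5, the protein C inhibitor, with 153, 79 and 150 reads against 15 to 22 (2.62), THBS1, thrombospondin 1 (1.08), and the transcription factors CEBPD (0.87) and STAT3 (0.62). PAR3 thus fell while the values of PAR1 and PAR2 were positive and did not pass the threshold, a difference between receptors that was not tested. With single libraries left out, CEBPB stayed past the threshold only without NFE2L2 siRNA library 1 (adjusted p up to 0.0399 otherwise, edgeR). CEBPD did so without that library or control duplex 1 repeat 1 (up to 0.0287 otherwise). STAT3 did so without either of these or NFE2L2 siRNA library 2 (up to 0.0264 otherwise). Over all 19 alternative settings, CEBPB passed in 9, CEBPD in 11 and STAT3 in 12. THBS1 had an adjusted p of 0.0124 without control duplex 1 repeat 2. FTL, FTH1, CEBPB, CEBPD and STAT3 are not themselves part of the cascades. The others were F2RL2, AMBP, SERPINA5 and THBS1, and not all of these are cascade components. IL6 had a log2 ratio of −0.88 (adjusted p = 0.0943). CP, ceruloplasmin, read 107, 53.1, 34.5 and 30.1 CPM in the controls and was chosen after its values were seen. This is the control order of the fibrinogen genes, shared by others such as C3 and TF.

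**Figure D5:**
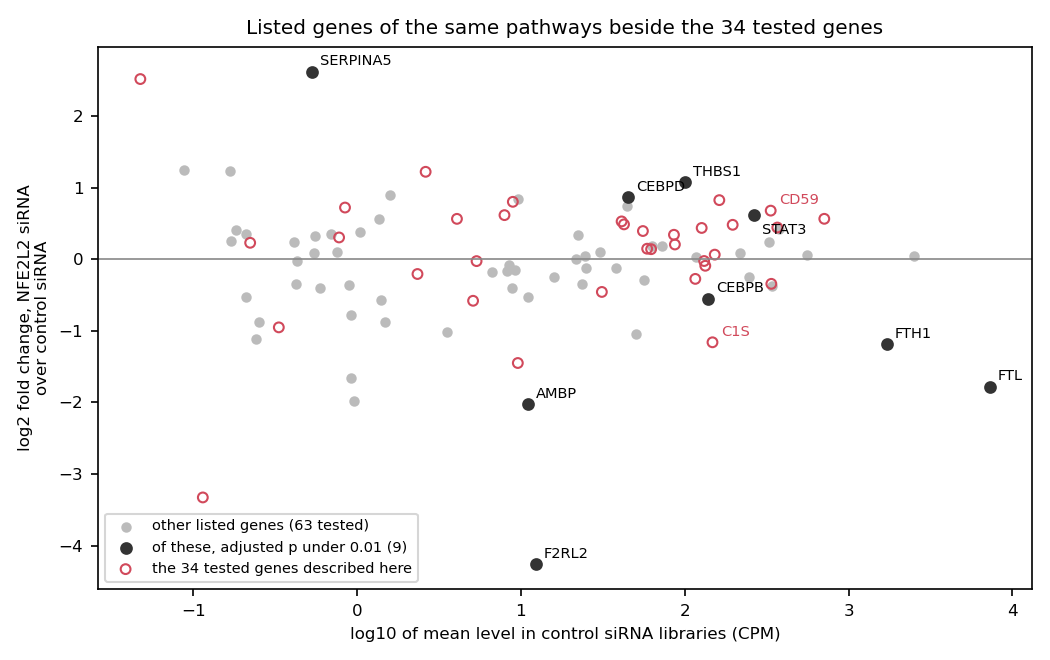
Log2 fold change (NFE2L2 siRNA over control siRNA, edgeR) against the log10 mean CPM in control siRNA for the 63 other tested genes of these systems (grey, with the 9 of adjusted p under 0.01 in black) and the 34 tested genes described here (open red circles). F2RL2 at −4.26 and SERPINA5 at 2.62 lie farthest from 0 among the black points, and C1S and CD59 are labelled in red.

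Several cell type markers moved with NFE2L2 siRNA. Of the 5 epithelial markers none passed the threshold of 0.01, but KRT19, CDH1 and EPCAM had log2 fold changes of 0.88, 0.74 and 0.80 (adjusted p = 0.0201, 0.0455 and 0.0624, edgeR), with KRT8 and KRT18 at 0.25 and 0.14. COL1A1 and PDGFRA (fibroblast) had log2 fold changes of 1.5 and 1.76, and ITGAM (leukocyte) of −1.30. Their adjusted p-values were 0.000493 to 0.00384 (edgeR). CDH5 (endothelial) had 18 to 39 reads with NFE2L2 siRNA against 4 to 8 with control siRNA (adjusted p = 0.00820, edgeR). It reached the 10 reads needed for testing only with NFE2L2 siRNA. Its tested groups therefore had to differ, and its p-value cannot be read as a call. Of the 3 endothelial markers matched, VWF and TEK had at most 5 reads in any library, and the summed level was 0.699 to 1.08 CPM with NFE2L2 siRNA, 0.296 to 0.443 CPM with control siRNA and 0.175 CPM in mock. Of the 4 fibroblast markers, COL1A2 had 0 to 3 reads, and the summed level was 10.6 to 15.1 CPM with NFE2L2 siRNA, 4.54 to 4.99 CPM with control siRNA and 4.23 CPM in mock. The 4 leukocyte markers summed to 8.57 to 12.3 CPM, 7.06 to 8.70 CPM and 6.38 CPM in the same order, mostly from CD14 (301 to 394 reads against 156 to 250). The part of these genes in the values of THBD, PLAT, C1S or C3, which such cells also express, was not tested.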

How the data were processed

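Strand-specific total RNA libraries were sequenced, and the authors aligned reads with HISAT 0.1.6 to hg19 and counted those falling within the exons of a gene on the matching strand with HTSeq 0.6.0 and GENCODE release 19 (intersection-strict mode). The deposited values are raw read counts per gene, without normalization; reads mapping to several places or genes were not counted. The rows for unassigned reads were left out of library sizes. Between 60.3% and 65.6% of reads in the files were counted on genes. Samples were grouped by their labels.

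Counts were analysed with edgeR 4.0.16 in R 4.3.3 (TMM factors, quasi-likelihood test, two-sided, prior count 0.125) for the 17811 genes that reached 10 reads in any of the 7 siRNA libraries. P-values were adjusted over all of them by the Benjamini-Hochberg method, and calls were made at 0.01. Mock did not enter the fit and is shown beside it. The control duplexes were compared in a fit with 3 groups. CPM values use TMM factors of all 8 libraries. Symbols, lengths and positions came from GENCODE release 44 lifted to GRCh37, because release 19 was not used here; PECAM1 had no match. Results for 1 searched motif and some listed genes are not reported here. The genes and lists were chosen with earlier results of these data known. Genes past 0.01 were named with every library, those up to 0.05 with group values, and others by role. The tests were checked on simulated data. Alternatives were DESeq2 1.42.0, limma-voom (limma 3.58.1), other scalings, filters and control groups, and omission of each library.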

Additional observations from a re-analysis of the deposited data

Results flagged for a closer look

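Within the 4 control siRNA libraries, 38 genes were examined for a single library far from the rest, by the ratio of its gap from the nearest library to the whole range, set against Dixon's critical value for 4 samples. For continuous values such a gap is found by chance in about 1 in 20 groups, or 1.9 of 38, and 4 were found. SERPING1, SERPINC1 and ORM1 had low counts with ties among the control libraries, so the 4 cannot be set against the 1.9. SERPING1 was highest in control duplex 1 repeat 1, with 5 reads and a ratio of 0.980. SERPINC1 was lowest in the same library, with 5 reads and a ratio of 0.906. ORM1 was highest there, with 13 reads and a ratio of 0.917. SERPINF2 was highest in control duplex 1 repeat 2, with 105 reads and a ratio of 0.882. Of these 4 genes only SERPINF2 had more than 13 reads in each control library. SERPINF2 and ORM1 were tested and not called with NFE2L2 siRNA, while SERPING1 and SERPINC1 were not tested.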

How the results depend on the processing

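No paired analysis was possible because NFE2L2 siRNA libraries are numbered by duplex and control libraries by repeat within a duplex. C1S passed the threshold in all 19 alternatives, and CD59 in 12 of 19. The count of the 38 genes passing, 2 as reported, was 5 with DESeq2 (C3, CD46 and PLAT added), 7 with a filter of 1 read or with a threshold of 0.05, 4 with mock added to the controls, and 1 against duplex 1 only, duplex 2 only or the duplexes summed. With single libraries left out it was 1 to 5. Over all tested genes, 2.76% passed as reported and 8.17% at 0.05 (edgeR). The shares of all genes under the other settings are not given. The counts under those settings, here and for the other pathway genes, therefore cannot be set against all genes. The count of other pathway genes, 9 as reported, was 14 with DESeq2 or a filter of 1 read, 4 against duplex 1 only, 3 against duplex 2 only or summed duplexes, 15 at 0.05, and 5 to 9 with single libraries left out. Between the control duplexes the count was 0, and 2 in the 4 control libraries only; leaving single libraries out gave 0. Fewer libraries are compared where a duplex is dropped or summed; otherwise the cause was not tested.

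Signs changed only for values that did not pass. Against duplex 1 only, the log2 fold change was −0.11 for C5, −0.21 for FGB, 0.062 for F3, −0.47 for F10, −0.039 for PROS1 and −0.26 for SERPINA1. For FGA it was 0.020 with library size alone, 0.14 with mock added, 0.28 against duplex 2 only and 0.0020 with the duplexes as separate groups. It was 0.0068 for F3 with library size alone and 0.012 for TFPI with mock added. With single libraries left out, values ranged from −0.020 to 0.20 for C5, −0.26 to 0.23 for FGA, −0.29 to 0.46 for FGB, −0.30 to 0.63 for FGG, −0.52 to 0.23 for F3, −0.24 to 1.03 for F10, −0.00016 to 0.33 for PROS1 and −0.42 to 0.89 for SERPINA1. F10, ORM1 and SAA1 had at most 19 reads in any library, which limits their precision.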
